A study of Mus musculus with 12 samples.

Results

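The interaction of hepatocyte AhR and dietary ethanol was followed in RNA-seq libraries of 12 of the 12 mouse livers of the study, that is, in all of its samples. A gene showed an interaction where its response to ethanol differed between the genotypes, which was tested for 14038 of the 24532 genes of the expression table. The livers came from male C57BL/6 mice that were 10 to 12 weeks old when the diets began, and each group held 3 mice. WT con and WT EtOH were wild-type littermates with a floxed Ahr gene (Ahr fl/fl) and no Cre. Ahr HKO con and Ahr HKO EtOH, named ALKO in the table, carried Ahr fl/fl with Cre under the albumin promoter (Alb-Cre), which acts in hepatocytes and leaves Ahr in the other liver cells. For 5 weeks the con mice took an isocaloric control liquid diet and the EtOH mice the Lieber-DeCarli liquid diet with ethanol at 5% of the volume, so the liquid diet and the floxed alleles were common to all 4 groups. The labels give 3 livers per group and no further batch, and P values cover the spread between these livers.

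AhR is a transcription factor that stays in the cytoplasm until a ligand binds it, then enters the nucleus and pairs with ARNT on DNA sites with the core GCGTG. In liver it is best known for inducing the Cyp1a enzymes that oxidize foreign compounds, and kynurenine, a breakdown product of tryptophan, is among its natural ligands. Ethanol is oxidized in hepatocytes by alcohol dehydrogenases and by Cyp2e1, and long exposure is known to load the liver with fat and oxidative stress. The design crossed the genotype with the diet, so that a response to ethanol that needs hepatocyte AhR, or that appears without it, is seen as a difference between the 2 diet responses.

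Throughout, a level is in CPM, the reads of a gene over the reads of the library on a common scale, taken on library totals scaled by TMM factors. The interaction is the log2 fold change of EtOH against con in Ahr HKO minus that in WT. A positive value means that the change with ethanol lay further upward in Ahr HKO than in WT, and a value of 1 is a 2-fold difference between the fold changes. Genes were called at an adjusted P value under 0.05 in the quasi-likelihood test of edgeR with Benjamini-Hochberg adjustment over the 14038 genes, and every adjusted P given is from that fit. Gene positions are those of the RefSeq annotation of GRCm38.

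The targeted gene was read first. Ahr (Entrez 11622, chr12:35497979-35534989) gave 20.2, 16.6 and 18.3 CPM in WT con, 30.5, 20.8 and 23.5 in WT EtOH, 65.5, 41.3 and 63.3 in Ahr HKO con and 41.8, 32.1 and 24.7 in Ahr HKO EtOH. Every Ahr HKO con library lay above all WT libraries, and the Ahr HKO EtOH libraries overlapped the WT EtOH libraries. The interaction of Ahr was -1.23 (SE 0.31) with an adjusted P of 0.0176. The loxP sites flank the second exon, and a count over the whole gene does not tell a transcript with this exon from one without it, so these reads do not check the deletion and the groups are used as labelled. Among the direct AhR targets, Cyp1a2 measured 617, 398 and 456 CPM in WT con, 1212, 1061 and 992 in WT EtOH, 90.7, 112 and 258 in Ahr HKO con and 629, 684 and 658 in Ahr HKO EtOH. It lay lowest in the 3 Ahr HKO con livers, its genotype effect on the control diet was -1.67 (adjusted P = 0.00298), and its interaction of 0.95 had an adjusted P of 0.154.

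The libraries held 46306518 to 74336255 reads on genes, so that 3 reads correspond to 0.0425 to 0.0676 CPM, a floor that covers counting error only. Correlations of log2 CPM were 0.969 to 0.9799 within groups and 0.932 to 0.9726 between groups, and no 2 libraries were identical. Hepatocyte markers such as Alb and Apoa1 had summed levels with group medians of 90300 to 121000 CPM, as the labelled tissue would give. The T and NK cell and B cell markers stayed under 8 CPM in sum in every library. Of the pancreatic acinar markers, Cpa1, Pnlip, Try4, Try5 and Amy2b had no read in any library, and of the adipocyte markers Lep, Plin1 and Retn had none, while the adipocyte sum reached 34.8 CPM in 1 Ahr HKO con library against a group median of 2.26. In bulk liver, fewer cells of a type and less RNA per cell cannot be told apart.

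An interaction was called for 3137 of 14038 genes, or 22.3%. It was positive for 1576 genes (11.2%) and negative for 1561 (11.1%). Of the 3137 genes, 1498 (47.8%) differed more than 2-fold between the genotypes in their ethanol response and 512 (16.3%) more than 4-fold. On log2(FPKM + 1) without quantile normalization the median interaction of all genes moved to -0.143, from -0.0252, and 23.4% of the called genes were positive in place of 50.2%. The near-even split of directions was thus found with TMM, upper-quartile and RLE factors and on quantile-normalized FPKM, and not on FPKM without that step. Values below are relative to the TMM scale. The called share rose with depth, from 9.83% of the genes in the lowest class of mean count to 28.9% of those in the highest, over 4 classes of equal size. The median standard error was 0.697 in the lowest class and 0.178 in the highest.

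Most of these genes had diet effects of opposite sign in the 2 genotypes, whether or not each effect was called, and the larger one was usually that of Ahr HKO. The 2 diet effects had opposite signs in 2458 (78.4%) of the interaction genes, against 47% of all tested genes. Since the interaction is the difference between these 2 effects, choosing genes by it favors opposite signs, and the 47% is no like background. The effect in Ahr HKO was the larger in 2402 (76.6%), against 63.9%. The median size of the diet effect in the interaction genes was 0.71 on the log2 scale in Ahr HKO and 0.30 in WT. The genotype effect showed the same shape, with a median size of 0.70 on the control diet and 0.27 on the ethanol diet. It was the larger on the control diet in 2415 genes (77%, against 62% of all tested genes). Over all genes, at an adjusted P under 0.05 with a fold change above 1.5, the diet effect was called for 1016 genes in WT (7.24%) and 3283 in Ahr HKO (23.4%). The genotype effect was called for 2816 on the control diet (20.1%) and 429 on the ethanol diet (3.06%). These 4 effects share libraries with each other and with the interaction, and are given to describe it. Among the interaction genes, 895 fell and 763 rose with ethanol in Ahr HKO without a call in WT. Another 211 fell and 107 rose in WT without a call in Ahr HKO, 72 fell in WT and rose in Ahr HKO, and 45 rose in WT and fell in Ahr HKO. The remainder included 1008 that had neither diet effect called.

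**Figure D1:**
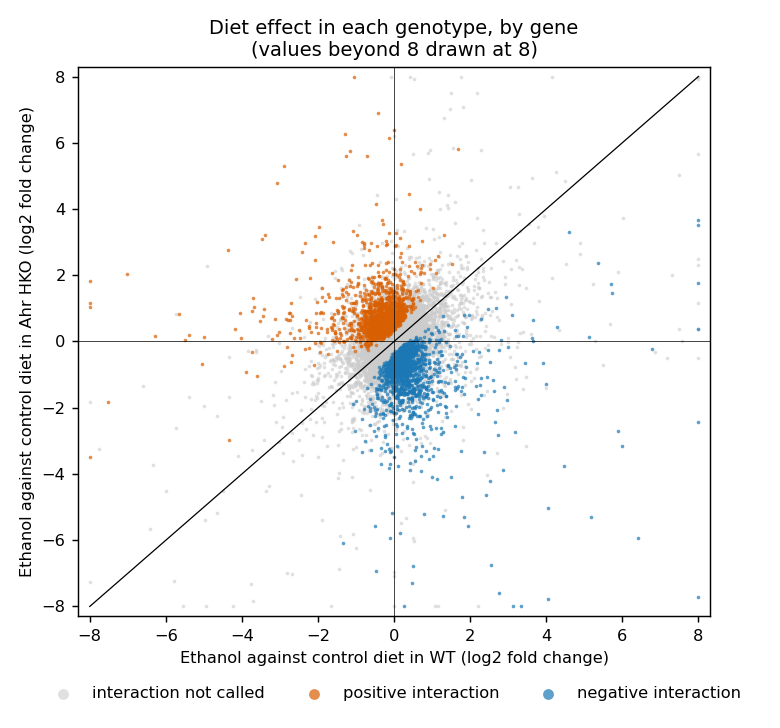
Each point is 1 of the 14038 tested genes, with the log2 fold change of ethanol against control diet in WT on the horizontal axis and that in Ahr HKO on the vertical axis, and the diagonal marks equal responses (values beyond 8 are drawn at 8). The 1576 genes with a positive interaction lie above the diagonal and the 1561 with a negative one below it. The median size of the diet effect in the interaction genes was 0.71 on the vertical axis and 0.30 on the horizontal one. Single genes such as Hsd3b5 and Cyp2b9 lie beyond 8 on the horizontal axis.

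The means of the 4 groups fell into a small number of patterns, and the most frequent placed the Ahr HKO con livers apart from the other 3 groups. A group was taken as apart where its mean log2 CPM was at least 1.5-fold beyond the nearest other mean and that gap exceeded the range of the other 3. Ahr HKO con stood apart in 909 interaction genes (29%), of which 467 were high there and 442 low. All 3 of its libraries lay beyond the other 9 in 430 and 420 of them. Among all tested genes with Ahr HKO con apart, the same held for 595 of 754 (high) and 658 of 884 (low). Among all tested genes these patterns were met by 5.37% (high) and 6.3% (low). WT con stood apart in 102 interaction genes (3.25%, against 2.81% of all tested genes). Of these, 68 were high and 34 low (2.17% and 1.08%), where the pattern was met by 1.57% and 1.23% of all tested genes. WT EtOH stood apart in 100 (3.19%, against 2.9%). Of these, 37 were high and 63 low (1.18% and 2.01%), against 1.8% and 1.1% of all tested genes. The shares of WT con and WT EtOH were thus near those of all tested genes, and WT con low and WT EtOH high lay below them. Ahr HKO EtOH stood apart in 128, 21 high and 107 low, against 0.684% and 3.34%, so that its 4.08% of the interaction genes was close to the 4.02% of all tested genes. A crossing pattern, with diet effects of at least 1.5-fold in opposite directions and genotype effects likewise, was met by 177 interaction genes, 82 with WT con and Ahr HKO EtOH high and 95 with both low, against 0.798% and 1.08% of all tested genes. Choosing genes by the interaction favors groups apart and crossing, so the shares of all tested genes are no test of these patterns.

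The gap rule left 1615 interaction genes (51.5%) outside these patterns, 77 with opposed diet responses and 29 with a shared direction of unequal size. In 938 of the 1615 the group farthest from the mean of the others was again Ahr HKO con (58.1%), and over all 3137 genes it was the farthest in 1957 (62.4%, against 43.1% of all tested genes). WT con was the farthest in 464 (14.8%), Ahr HKO EtOH in 444 (14.2%) and WT EtOH in 272 (8.67%). The count for Ahr HKO EtOH depended on single libraries. It fell from 128 to 75, 55 and 53 without WT con replicate 1, 2 and 3 and to 61 without WT EtOH replicate 2. It fell likewise to 68 and 76 without Ahr HKO con replicate 1 and 2, and to 72 without Ahr HKO EtOH replicate 3. The count for WT EtOH rose from 100 to 151 without WT EtOH replicate 3. No left-out library moved the counts for Ahr HKO con, WT con or the crossing pattern by over 1.5 times.

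**Figure D2:**
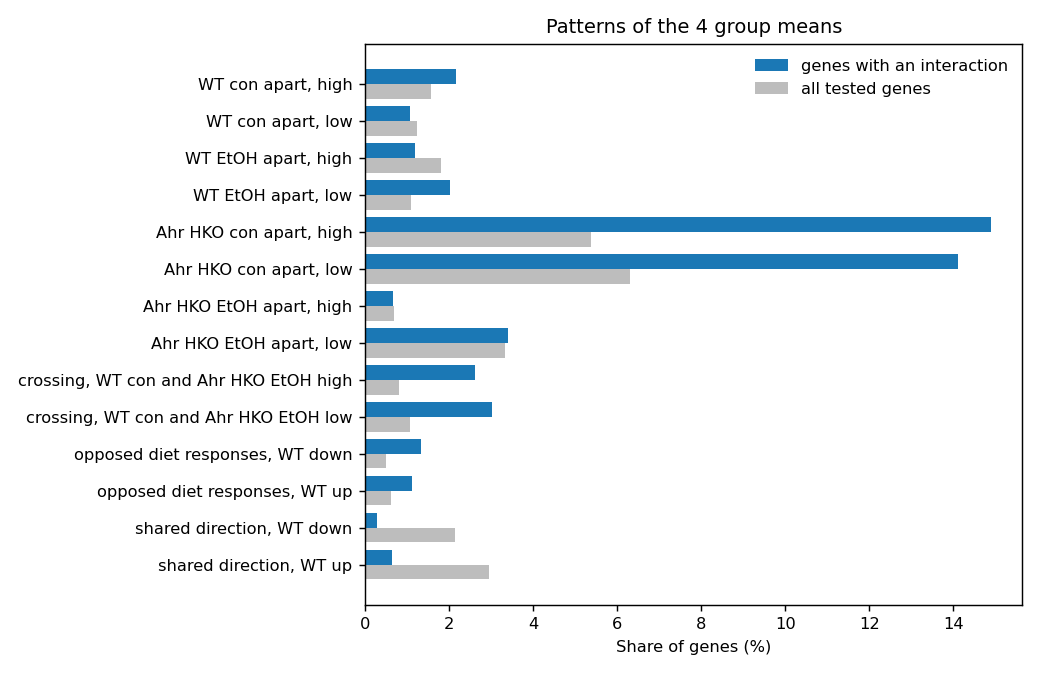
Bars give the share of genes, in percent, that met each pattern of the 4 group means, for the 3137 genes with an interaction (blue) and for all 14038 tested genes (gray). The bars for Ahr HKO con apart, high and low, reach 14.9% and 14.1% of the interaction genes beside 5.37% and 6.3% of all tested genes.

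The 467 genes that stood high in Ahr HKO con had a median genotype effect of 1.09 on the control diet and a median diet effect of -1.12 in Ahr HKO, beside 0.07 in WT. Plscr1 (Entrez 22038, chr9:92250194-92272561), which encodes a phospholipid scramblase of the plasma membrane that interferon induces, measured 13.03, 11.6 and 11.7 CPM in WT con, 15.2, 13.2 and 9.76 in WT EtOH, 66.1, 70.6 and 63.9 in Ahr HKO con and 7.34, 6.79 and 8.23 in Ahr HKO EtOH. The 3 Ahr HKO con values were apart from the 9 others. With an interaction of -3.24 (SE 0.21) it shared the smallest adjusted P of all genes, 6.38e-05, with Tubb6. Tubb6, a beta-tubulin, measured 5.697, 7.28 and 6.26 CPM in WT con, 16.99, 11.6 and 9.74 in WT EtOH, 83.8, 98.02 and 122 in Ahr HKO con and 4.61, 7.64 and 5.57 in Ahr HKO EtOH. The Ahr HKO con livers were again above all others, and the WT EtOH livers lay above the WT con livers. Its interaction came to -5.08 (SE 0.34, adjusted P = 6.38e-05). Nop58, a core protein of the particles that methylate ribosomal RNA, measured 8.97, 8.91 and 10.3 CPM in WT con, 18.03, 16.9 and 16.7 in WT EtOH, 32.7, 33.1 and 43.8 in Ahr HKO con and 10.8, 13.04 and 12.5 in Ahr HKO EtOH. In WT it rose with ethanol (log2 0.87, adjusted P = 0.00234) and fell in Ahr HKO (log2 -1.60, adjusted P = 3.03e-05), with an interaction of -2.47 (SE 0.18, adjusted P = 7.76e-05). Lrrc59, a receptor of ribosomes on the endoplasmic reticulum, measured 50.4, 60.8 and 60.9 CPM in WT con, 82.7, 77.1 and 77.6 in WT EtOH, 215, 175 and 207 in Ahr HKO con and 79.8, 83.4 and 77.4 in Ahr HKO EtOH. No Ahr HKO con value came near the other 9, and the interaction was -1.77 (SE 0.15, adjusted P = 1.31e-04).

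The same shape was carried by acute phase proteins, which hepatocytes secrete in inflammation. Of 27 tested members, 12 had a negative interaction and 0 a positive one, against 11.1% and 11.2% of all tested genes, with a median of -1.31 beside -0.0252 for all genes. In all, 10 of the 12 stood high in Ahr HKO con. This list and the others below were chosen with earlier results of these data known, so their counts are no independent evidence. Serpina3n (Entrez 20716, chr12:104406646-104414334), an inhibitor of serine proteases, measured 432, 736 and 755 CPM in WT con, 881, 487 and 549 in WT EtOH, 6130, 5300 and 8116 in Ahr HKO con and 639, 501 and 586 in Ahr HKO EtOH. The 3 Ahr HKO con livers lay far above all others. This gave an interaction of -3.50 (SE 0.39, adjusted P = 3.69e-04). Steap4, a metalloreductase, measured 97.8, 227 and 157 CPM in WT con, 156, 162 and 118 in WT EtOH, 1887, 1211 and 2760 in Ahr HKO con and 163, 166 and 289 in Ahr HKO EtOH. Its interaction was -3.10 (SE 0.51) with an adjusted P of 0.00247, without overlap between Ahr HKO con and the rest. Fga, the alpha chain of fibrinogen, measured 4392, 6290 and 5526 CPM in WT con, 3625, 2902 and 3847 in WT EtOH, 14690, 14950 and 17690 in Ahr HKO con and 4176, 3070 and 3751 in Ahr HKO EtOH. It fell with ethanol in both genotypes (log2 -0.64 in WT and -2.11 in Ahr HKO, adjusted P = 0.0486 and 5.32e-05), more so in Ahr HKO, and the interaction was -1.46 (SE 0.26, adjusted P = 0.00376). Crp, C-reactive protein, measured 298, 308 and 268 CPM in WT con, 363, 317 and 403 in WT EtOH, 638, 565 and 686 in Ahr HKO con and 461, 357 and 377 in Ahr HKO EtOH. The 3 Ahr HKO con livers were highest, and the interaction of -0.97 (SE 0.19) had an adjusted P of 0.00537. The acute phase list itself lay low in 1 control liver. Its median level relative to the WT con mean was -0.525 in WT con replicate 1 and 0.264 and 0.205 in the other two, against 1.46, 1.15 and 1.64 in Ahr HKO con. The count of negative members was 10 to 12 whichever library was left out.

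**Figure D3:**
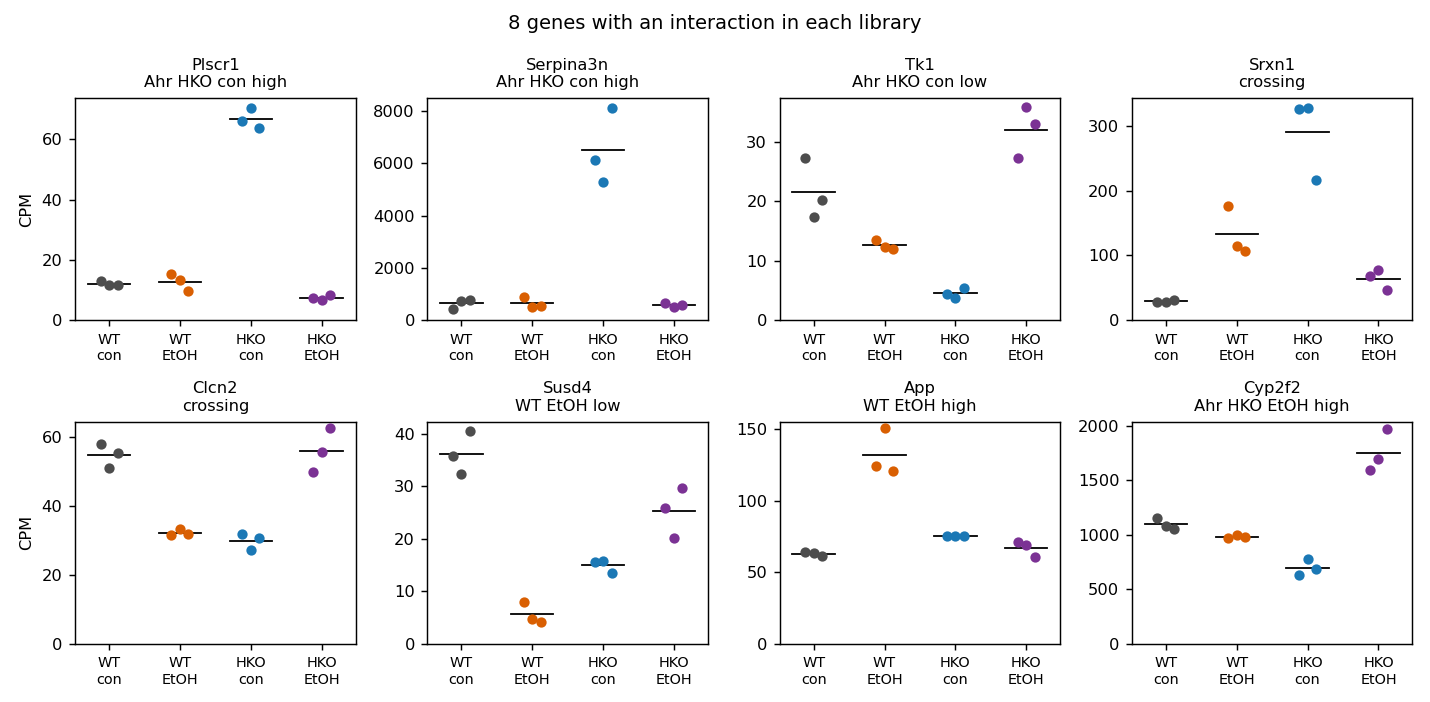
CPM of 8 genes with an interaction in each of the 12 libraries (points) by group, with the group mean as a line and a vertical axis that starts at 0 for each gene. Plscr1 and Serpina3n are high in the 3 Ahr HKO con livers, Tk1 is low there, Srxn1 and Clcn2 cross, Susd4 is low and App high in WT EtOH, and Cyp2f2 is highest in Ahr HKO EtOH.

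Genes of ribosome assembly, of the cytoskeleton and of tRNA charging were counted from lists that were written after such genes had been seen among the interaction genes, so that their counts describe these data and are no independent evidence. Ribosome biogenesis had 26 negative and 0 positive members among 39 tested, against 11.1% and 11.2% of all tested genes, with a median interaction of -0.825. Tsr1, which matures the small ribosomal subunit, measured 12.1, 14.6 and 16.01 CPM in WT con, 19.5, 15.2 and 14.96 in WT EtOH, 38.5, 42.4 and 44.6 in Ahr HKO con and 12.4, 12.4 and 12.4 in Ahr HKO EtOH. Eif6, which keeps the large subunit from joining too early, measured 39.2, 52 and 51.5 CPM in WT con, 67.95, 55.9 and 55.1 in WT EtOH, 141, 125 and 145 in Ahr HKO con and 51.4, 54.01 and 46.7 in Ahr HKO EtOH. Both were highest in all 3 Ahr HKO con livers, with interactions of -1.98 (SE 0.18) and -1.76 (SE 0.18) and adjusted P values of 1.67e-04 and 3.14e-04. The median level of the list was 0.731, 0.629 and 0.846 in Ahr HKO con, relative to the WT con mean on the log2 scale, 0.298, 0.171 and 0.132 in WT EtOH and -0.0753, 0.136 and 0.0943 in Ahr HKO EtOH. Cytosolic ribosomal proteins, the products that are assembled, had 1 negative and 0 positive of 77, shares below those of all tested genes, and a median of 0.0136. None was negative without WT con replicate 1 or 3, WT EtOH replicate 2 or 3, Ahr HKO con replicate 1 or 3 or Ahr HKO EtOH replicate 1 or 3.

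Tubulin, actin and adhesion genes had 25 negative and 0 positive of 39 tested, against 11.1% and 11.2% of all tested genes, with a median of -1.07. Actb, the cytoplasmic actin often used as a reference gene, measured 433, 489 and 419 CPM in WT con, 681, 647 and 567 in WT EtOH, 1210, 1351 and 1083 in Ahr HKO con and 606, 526 and 493 in Ahr HKO EtOH. The 3 Ahr HKO con livers held the highest values. The interaction amounted to -1.66 (SE 0.18, adjusted P = 3.38e-04). Krt8, a keratin of hepatocytes and bile ducts, measured 192, 199 and 176 CPM in WT con, 378, 249.7 and 261 in WT EtOH, 841, 913 and 677 in Ahr HKO con and 266, 291 and 253 in Ahr HKO EtOH. Levels rose with ethanol in WT (log2 0.65, adjusted P = 0.0301) and fell in Ahr HKO (log2 -1.59, adjusted P = 1.04e-04), and the interaction was -2.24 (SE 0.24, adjusted P = 3.14e-04). Myh9, a nonmuscle myosin, measured 149.7, 172 and 148 CPM in WT con, 164, 169 and 157 in WT EtOH, 397, 379 and 429 in Ahr HKO con and 170.4, 145 and 168 in Ahr HKO EtOH. The WT and Ahr HKO EtOH livers lay between 145 and 172 CPM, apart from Ahr HKO con. Its interaction was -1.38 (SE 0.14, adjusted P = 3.14e-04). Aminoacyl-tRNA synthetases, which load amino acids on tRNA, had 12 negative and 0 positive of 20, against the same shares, and a median of -0.512. Lars, the leucine enzyme, measured 25.6, 26.3 and 28 CPM in WT con, 28.5, 23.7 and 23.2 in WT EtOH, 41.2, 43.7 and 44.3 in Ahr HKO con and 20.4, 20.5 and 19.7 in Ahr HKO EtOH. The interaction was -1.01 (SE 0.13, adjusted P = 6.90e-04). The Ahr HKO con livers again held the 3 highest values.

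Markers of neutrophils, Kupffer cells, monocytes and macrophages had negative interactions as well, and all marker lists are given beside these lists. Among all tested genes 11.1% were negative and 11.2% positive. Of 4 neutrophil markers tested, 4 were negative (S100a8, S100a9, Retnlg and Csf3r), and their summed level was 3.89 to 5.5 CPM in WT con, 6.83 to 12.8 in WT EtOH, 12 to 15.1 in Ahr HKO con and 4.53 to 5.2 in Ahr HKO EtOH. Of 10 Kupffer cell markers 7 were negative (Timd4, Cd5l, Adgre1, Marco, C1qa, C1qb and C1qc), with sums of 493 to 643, 453 to 1100, 445 to 1220 and 290 to 357 CPM in the same order. That count fell to 1 without WT con replicate 1 or 2 or Ahr HKO con replicate 1 and to 2 without WT con replicate 3, WT EtOH replicate 2, Ahr HKO con replicate 2 or any Ahr HKO EtOH replicate. With limma-voom it was 1. Of 6 monocyte and macrophage markers 4 were negative (Ccr2, Ly6c2, Itgam and Lyz2), with sums of 71.5 to 75.4, 59.3 to 155, 69.5 to 189 and 36.8 to 45.8 CPM. Their count was 2 without WT con replicate 1, WT EtOH replicate 2, Ahr HKO con replicate 1 or Ahr HKO EtOH replicate 2. Cholangiocyte, endothelial and stellate lists held 1 of 6 (Epcam), 1 of 10 (Pecam1) and 2 of 11 (Pdgfrb and Timp1) tested members that were negative. The cholangiocyte sum was 45 to 476 CPM in Ahr HKO con against 37.3 to 132 elsewhere. In the 12 fits with a library left out, the cholangiocyte count was 0 in 7 fits, the endothelial count 0 in 8 and the stellate count 1 in 9. Erythroid, T and NK cell and pancreatic acinar lists held 1 positive member each (Alas2, Cd4 and Cela1), of 5, 6 and 2 tested. The T and NK cell count was 0 in 7 of those fits and with limma-voom. The erythroid count was 2 without Ahr HKO con replicate 1 or 3, and the acinar count 2 without Ahr HKO EtOH replicate 3. B cell and adipocyte lists held none, and the hepatocyte list 1 of 8 (Apoa1, positive, absent in 9 of those 12 fits). The part of these cells in the acute phase, cytoskeletal and other results was not tested.

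The 442 genes that stood low in Ahr HKO con had a median genotype effect of -1.14 on the control diet and a median diet effect of 1.11 in Ahr HKO, beside -0.12 in WT. Tk1 (Entrez 21877, chr11:117815519-117826087), the cytosolic thymidine kinase that makes DNA precursors, measured 27.2, 17.4 and 20.2 CPM in WT con, 13.5, 12.4 and 11.96 in WT EtOH, 4.46, 3.702 and 5.404 in Ahr HKO con and 27.3, 35.8 and 33.1 in Ahr HKO EtOH. It rose with ethanol in Ahr HKO (log2 2.83, adjusted P = 2.55e-05) and fell in WT (log2 -0.78, adjusted P = 0.0193), and its interaction of 3.60 (SE 0.26) had an adjusted P of 7.76e-05. Fn3k, a kinase that removes sugar from glycated proteins, measured 19.3, 21.97 and 21.4 CPM in WT con, 12.2, 9.98 and 14.8 in WT EtOH, 2.65, 4.504 and 2.82 in Ahr HKO con and 16.5, 16.7 and 15.7 in Ahr HKO EtOH. The 3 Ahr HKO con values were under 5 CPM and every other value was near 10 or above, with an interaction of 3.06 (SE 0.28, adjusted P = 1.67e-04). Aifm3, a mitochondrial flavoprotein, measured 6.44, 6.73 and 6.15 CPM in WT con, 5.49, 4.09 and 4.82 in WT EtOH, 2.19, 2.18 and 2.24 in Ahr HKO con and 7.63, 6.79 and 7.46 in Ahr HKO EtOH. The Ahr HKO con livers differed by less than 0.1 CPM from each other and lay below the rest. Its interaction came to 2.15 (SE 0.18, adjusted P = 1.31e-04). BC024386 measured 443, 399 and 353 CPM in WT con, 275, 249.7 and 369 in WT EtOH, 96.8, 115 and 96.5 in Ahr HKO con and 451, 423 and 434 in Ahr HKO EtOH, and the interaction was 2.50 (SE 0.21, adjusted P = 1.31e-04). Its Ahr HKO con values were the 3 lowest.

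Few members of any list met this low pattern, against 442 of 14038 tested genes. They were 2 of 17 pericentral, 1 of 26 cholesterol, 1 of 25 lipogenesis, 1 of 18 glucose and 2 of 14 growth hormone genes. The circadian, kynurenine, bile acid and ceramide lists held 2 each as well, so the pattern was not particular to the lists of the genes below. Notum, a feedback inhibitor of Wnt signaling at the central vein, measured 60.4, 50.2 and 57.97 CPM in WT con, 61.8, 45.3 and 57.8 in WT EtOH, 13.9, 23.03 and 15.1 in Ahr HKO con and 48.4, 48.5 and 46.8 in Ahr HKO EtOH. The lowest 3 values were those of Ahr HKO con. This gave an interaction of 1.5 (SE 0.25, adjusted P = 0.002601). Insig1, which holds SREBP in the endoplasmic reticulum when sterols are plentiful, measured 206, 246 and 162 CPM in WT con, 114, 193 and 175 in WT EtOH, 94.7, 109 and 62.2 in Ahr HKO con and 213, 252 and 215 in Ahr HKO EtOH. It rose with ethanol in Ahr HKO (log2 1.35, adjusted P = 0.00174), and the interaction was 1.70 (SE 0.34, adjusted P = 0.00587). Gys2, the liver glycogen synthase, measured 217, 206 and 180.2 CPM in WT con, 132, 181 and 169 in WT EtOH, 75.3, 73.9 and 101 in Ahr HKO con and 127, 259 and 169 in Ahr HKO EtOH. Ahr HKO con lay below all others, and Ahr HKO EtOH spread from 127 to 259 CPM. The interaction amounted to 1.47 (SE 0.33, adjusted P = 0.0101). Igfals, the carrier that keeps IGF1 in the blood, measured 87.7, 109.9 and 117 CPM in WT con, 108, 89.01 and 107 in WT EtOH, 25.9, 38.01 and 56.2 in Ahr HKO con and 129, 112 and 94.5 in Ahr HKO EtOH. It was under 60 CPM in the 3 Ahr HKO con livers alone, and the interaction was 1.52 (SE 0.33, adjusted P = 0.00896). Dgat2, the last step of triglyceride synthesis, measured 593, 529.9 and 614 CPM in WT con, 734, 584 and 594 in WT EtOH, 294, 323 and 309.5 in Ahr HKO con and 737, 552 and 549 in Ahr HKO EtOH, and its interaction of 0.85 (SE 0.20) had an adjusted P of 0.0124. Its Ahr HKO con values did not overlap the others.

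Promoters are shown for the interaction gene with the smallest P in 4 of the patterns, among genes with a window in the promoter table, because AhR and ARNT bind the core GCGTG. The sequences are those of RefSeq on GRCm38.p6, from 250 bases before the start in the promoter table to 50 after it, in the direction of the gene, with GCGTG or CACGC, which is GCGTG on the other strand, in capitals. For Tk1 and Susd4 that start lies inside the annotated span of the gene. Plscr1 was taken for Ahr HKO con high (chr9:92249944-92250243, plus strand), Tk1 for Ahr HKO con low (chr11:117825965-117826264, minus strand), Srxn1 for the crossing pattern (chr2:152105274-152105573, plus strand) and Susd4 for WT EtOH low (chr1:182763966-182764265, plus strand).
Plscr1: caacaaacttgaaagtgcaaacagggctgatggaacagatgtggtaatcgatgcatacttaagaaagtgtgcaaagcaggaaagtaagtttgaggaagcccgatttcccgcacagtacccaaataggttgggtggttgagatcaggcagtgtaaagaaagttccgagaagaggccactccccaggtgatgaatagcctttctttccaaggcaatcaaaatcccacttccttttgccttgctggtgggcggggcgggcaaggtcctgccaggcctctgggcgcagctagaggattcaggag
Tk1: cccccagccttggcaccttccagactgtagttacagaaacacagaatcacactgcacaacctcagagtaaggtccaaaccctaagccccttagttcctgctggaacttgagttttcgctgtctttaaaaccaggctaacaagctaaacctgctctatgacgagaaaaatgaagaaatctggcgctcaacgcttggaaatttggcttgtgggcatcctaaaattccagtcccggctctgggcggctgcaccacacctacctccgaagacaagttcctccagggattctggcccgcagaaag
Srxn1: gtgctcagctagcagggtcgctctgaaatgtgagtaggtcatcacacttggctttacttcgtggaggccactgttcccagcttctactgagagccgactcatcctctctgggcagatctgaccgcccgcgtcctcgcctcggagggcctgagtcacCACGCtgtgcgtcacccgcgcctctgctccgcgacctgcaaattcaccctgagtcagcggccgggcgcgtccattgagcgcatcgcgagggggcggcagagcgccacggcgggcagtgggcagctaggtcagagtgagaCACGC
Susd4: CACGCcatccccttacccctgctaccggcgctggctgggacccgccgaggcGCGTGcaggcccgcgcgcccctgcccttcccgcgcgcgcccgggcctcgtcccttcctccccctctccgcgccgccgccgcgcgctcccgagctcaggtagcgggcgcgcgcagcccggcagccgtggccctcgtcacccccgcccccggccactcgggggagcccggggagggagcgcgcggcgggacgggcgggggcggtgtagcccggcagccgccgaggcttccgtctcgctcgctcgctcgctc
The windows of Plscr1 and Tk1 held no match. That of Srxn1 held 2 matches, which began at positions -94 and 46 from the start, and that of Susd4 held 2, at -250 and -199. Of all 32851 windows of this length in the table, 32.4% held the core, and 148 of the 197 genes named by rule had a window. A match is a description of letters and not a bound site.

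The 63 genes that stood low in WT EtOH had a median diet effect of -2.67 in WT and 0.29 in Ahr HKO. Among them were 17 of 25 listed genes that male livers express more than female livers under pulses of growth hormone. Of these 25 male-biased genes, all tested, 22 had a positive interaction and 0 a negative one, against 11.2% and 11.1% of all tested genes, with a median of 2.83. Earlier results of these data were known when this list was chosen, so the count describes these data. Hsd3b5 (Entrez 15496, chr3:98618636-98645534), a steroid dehydrogenase, measured 256, 241 and 252 CPM in WT con, 0, 0.143 and 0.605 in WT EtOH, 9.15, 26.96 and 18.4 in Ahr HKO con and 12.5, 91.2 and 88.2 in Ahr HKO EtOH. It was under 1 CPM in WT EtOH and over 9 in every other liver, and its interaction of 11.72 (SE 1.25) had an adjusted P of 3.14e-04. Cyp4a12a, which hydroxylates arachidonic acid, measured 298, 298 and 152 CPM in WT con, 6.61, 6.55 and 10.3 in WT EtOH, 283, 161 and 135 in Ahr HKO con and 124, 256 and 256 in Ahr HKO EtOH. The WT EtOH livers alone were under 12 CPM. Its interaction was 5.13 (SE 0.55, adjusted P = 3.14e-04). Susd4 (Entrez 96935, chr1:182764044-182896596), a regulator of complement, measured 35.8, 32.5 and 40.6 CPM in WT con, 7.99, 4.75 and 4.17 in WT EtOH, 15.5, 15.8 and 13.5 in Ahr HKO con and 25.8, 20.1 and 29.8 in Ahr HKO EtOH. It fell with ethanol in WT (log2 -2.69, adjusted P = 1.53e-04) and rose in Ahr HKO (log2 0.76, adjusted P = 0.0195). The interaction was 3.44 (SE 0.32, adjusted P = 1.67e-04). Selenbp2, a selenium-binding protein, measured 1597, 1740 and 1573 CPM in WT con, 34.9, 27.7 and 45.6 in WT EtOH, 654, 1031 and 211 in Ahr HKO con and 113, 592 and 1250 in Ahr HKO EtOH. Its WT EtOH livers were all under 50 CPM and its Ahr HKO EtOH livers spread more than 10-fold, with an interaction of 5.55 (SE 1.02, adjusted P = 0.00409).

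The median level of the male-biased list, relative to the WT con mean on the log2 scale, was -3.11, -2.93 and -2.66 in WT EtOH, -0.834, -0.564 and -1.42 in Ahr HKO con and -1.06, -0.428 and -0.0949 in Ahr HKO EtOH. Every WT EtOH liver lay below all others, and the Ahr HKO livers lay between them and WT con, with 1 Ahr HKO EtOH liver at the level of the lowest WT con liver. Of 20 female-biased genes 14 passed the filter on low counts, and 4 had a negative interaction (Cyp2b9, Cyp2a4, Slc22a27 and Atp6v0d2). Cyp2a4, a steroid hydroxylase, measured 0, 0 and 0 CPM in WT con, 207, 471 and 354 in WT EtOH, 0.229, 0.0683 and 6.39 in Ahr HKO con and 27.5, 53.03 and 2.66 in Ahr HKO EtOH. It had no read in WT con, was highest in WT EtOH and lay between them in Ahr HKO EtOH, where 1 liver was under the highest Ahr HKO con liver. Its interaction of -13.58 at an adjusted P of 0.0239 depends on the prior count of the fit because all WT con livers were at 0. The call was lost with limma-voom and without Ahr HKO con replicate 3, where the gene stood at 6.39 CPM, and without that liver 2 female-biased genes were called in place of 4. The call of Cyp2b9 was kept in 2 of the 12 fits with a library left out, those without Ahr HKO con replicate 1 or 2. Bile acid genes overlapped with the male-biased list at Cyp7b1 and Slco1a1. Slco1a1, a transporter of bile acids and steroids, measured 452, 332 and 251 CPM in WT con, 0.6796, 0.954 and 22.9 in WT EtOH, 142, 230.3 and 199 in Ahr HKO con and 153, 244 and 254 in Ahr HKO EtOH. Its WT EtOH livers were under 25 CPM and all others over 140. Its interaction came to 5.58 (SE 1.40, adjusted P = 0.0165). The Cyp2a, Cyp2b, Cyp4a and Mup genes have near-identical copies that could share reads, and values of single members are uncertain.

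Members of other lists stood low in WT EtOH too, though C6 of the complement list is also a member of the male-biased list. Pfkfb1, the liver enzyme that sets fructose 2,6-bisphosphate, measured 50.1, 46.1 and 48.1 CPM in WT con, 13.2, 13.9 and 21.8 in WT EtOH, 34.8, 33.6 and 45.5 in Ahr HKO con and 40.6, 44.98 and 57.6 in Ahr HKO EtOH. The WT EtOH livers lay under 22 CPM and the rest above 33, and the interaction was 1.89 (SE 0.28, adjusted P = 0.00149). Cyp27a1, which opens the acidic route of bile acid synthesis, measured 596, 565 and 559.5 CPM in WT con, 362, 253 and 313 in WT EtOH, 523, 469 and 518 in Ahr HKO con and 566, 458 and 512 in Ahr HKO EtOH. It fell with ethanol in WT (log2 -0.89, adjusted P = 0.00292) beside 0.02 in Ahr HKO. This gave an interaction of 0.92 (SE 0.19, adjusted P = 0.00733). C6, a component of the membrane attack complex, measured 304, 434 and 353 CPM in WT con, 13.6, 32.4 and 27.1 in WT EtOH, 383, 375 and 206 in Ahr HKO con and 85.5, 203 and 216 in Ahr HKO EtOH. Only the WT EtOH livers were under 50 CPM, and the interaction was 2.96 (SE 0.55, adjusted P = 0.00437).

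In the 37 genes that stood high in WT EtOH the median diet effect was 1.48 in WT and -0.18 in Ahr HKO. App (Entrez 11820, chr16:84952666-85175255), the amyloid precursor protein, measured 64.5, 63.6 and 61.4 CPM in WT con, 125, 151 and 121 in WT EtOH, 75.4, 75.3 and 75.2 in Ahr HKO con and 71.3, 68.8 and 60.9 in Ahr HKO EtOH. It rose with ethanol in WT (log2 1.06, adjusted P = 2.33e-04) and the 3 WT EtOH livers lay above all others. The interaction amounted to -1.23 (SE 0.14, adjusted P = 4.05e-04). Cd63, a membrane protein of late endosomes, measured 2.97, 5.03 and 5.52 CPM in WT con, 27.8, 22.1 and 24.6 in WT EtOH, 6.83, 4.57 and 5.08 in Ahr HKO con and 3.37, 6.67 and 3.83 in Ahr HKO EtOH. The WT EtOH livers were above 20 CPM and all others under 7, with an interaction of -2.70 (SE 0.40, adjusted P = 0.00149). Atf3, a transcription factor of the stress response, measured 0.699, 0.7497 and 0.818 CPM in WT con, 18.3, 5.07 and 5.05 in WT EtOH, 1.42, 0.9896 and 1.57 in Ahr HKO con and 1.28, 1.91 and 0.789 in Ahr HKO EtOH. WT EtOH was highest in all 3 livers, 1 of which lay above 18 CPM, and the interaction was -3.63 (SE 0.71, adjusted P = 0.00565). Gsta1, a glutathione transferase that AhR and NRF2 are known to induce, measured 1.38, 0.571 and 0.9403 CPM in WT con, 77.3, 57.6 and 13.1 in WT EtOH, 1.44, 1.64 and 2.26 in Ahr HKO con and 5.12, 8.41 and 3.97 in Ahr HKO EtOH. Expression rose with ethanol in both genotypes, by a log2 of 5.69 in WT and 1.72 in Ahr HKO (adjusted P = 6.71e-04 and 0.0313). Its interaction was -3.97 (SE 0.81, adjusted P = 0.00649). It was the 1 of 12 tested AhR target genes with a call, a share below the 22.3% of all tested genes. The count of negative AhR targets was 3 without WT con replicate 1 and 2 without Ahr HKO con replicate 2. A positive call appeared for 1 AhR target without Ahr HKO con replicate 1 or 3. With limma-voom neither Gsta1 nor any other AhR target was called, and the adjusted P of Gsta1 was 0.131.

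In the 177 crossing genes the genotype that was higher on the control diet was the lower one on the ethanol diet. Srxn1 (Entrez 76650, chr2:152105524-152111376), sulfiredoxin, which repairs oxidized peroxiredoxins, measured 27.1, 28.1 and 31.6 CPM in WT con, 176, 115 and 107 in WT EtOH, 326, 328 and 217 in Ahr HKO con and 68.1, 77.4 and 46.6 in Ahr HKO EtOH. In WT it rose with ethanol (log2 2.19, adjusted P = 6.05e-04) and fell by a similar amount in Ahr HKO (log2 -2.18, adjusted P = 1.31e-04), and its interaction of -4.37 (SE 0.34) had an adjusted P of 1.12e-04. Icam1, an adhesion molecule for leukocytes, measured 8.69, 11.6 and 13.1 CPM in WT con, 30.1, 25.3 and 19.8 in WT EtOH, 25.4, 28.9 and 23.7 in Ahr HKO con and 7.696, 11.7 and 8.36 in Ahr HKO EtOH. The 6 livers of WT EtOH and Ahr HKO con lay above the other 6. The interaction was -2.66 (SE 0.29, adjusted P = 3.38e-04). Jun, a part of the AP-1 factor, measured 5.54, 6.62 and 7.15 CPM in WT con, 34.3, 19.6 and 33.7 in WT EtOH, 23.8, 14.3 and 25.1 in Ahr HKO con and 11.4, 14.7 and 13.8 in Ahr HKO EtOH. WT con lay lowest, Ahr HKO EtOH next, and the Ahr HKO con livers reached down to that range, with an interaction of -2.84 (SE 0.35, adjusted P = 5.95e-04). Ly6d, a membrane protein of B cell progenitors and epithelia, measured 0.742, 1.98 and 1.25 CPM in WT con, 37.7, 21.7 and 6.85 in WT EtOH, 76.9, 35.3 and 21.3 in Ahr HKO con and 1.62, 1.61 and 0.767 in Ahr HKO EtOH. Its Ahr HKO con values were all above 20 CPM and its WT con values under 2. Its interaction came to -9.08 (SE 0.98, adjusted P = 3.22e-04).

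In the other direction, Clcn2 (Entrez 12724, chr16:20702435-20717746), a chloride channel, measured 58.1, 51.2 and 55.6 CPM in WT con, 31.5, 33.5 and 31.9 in WT EtOH, 31.9, 27.2 and 30.7 in Ahr HKO con and 50, 55.7 and 62.8 in Ahr HKO EtOH. The 6 livers of WT con and Ahr HKO EtOH were all at or above 50 CPM and the other 6 all under 34, and the interaction was 1.67 (SE 0.14, adjusted P = 1.31e-04). Adrb3, an adrenergic receptor, measured 14.7, 12.6 and 11.2 CPM in WT con, 6.31, 4.74 and 4.04 in WT EtOH, 2.78, 2.47 and 2.44 in Ahr HKO con and 7.58, 8.27 and 7.06 in Ahr HKO EtOH. It fell in WT (log2 -1.35, adjusted P = 0.00101) and rose in Ahr HKO (log2 1.57, adjusted P = 1.23e-04), with an interaction of 2.93 (SE 0.24, adjusted P = 1.31e-04). Hsd3b2, a steroid dehydrogenase, measured 44.7, 37.3 and 40.3 CPM in WT con, 10.4, 17.7 and 20.3 in WT EtOH, 11.5, 14.5 and 15.3 in Ahr HKO con and 33.7, 37.2 and 36.95 in Ahr HKO EtOH. WT con and Ahr HKO EtOH did not overlap the other 2 groups. This gave an interaction of 2.72 (SE 0.29, adjusted P = 3.14e-04). Srebf1, the transcription factor that drives fatty acid synthesis, measured 358, 297 and 306 CPM in WT con, 137, 84.3 and 176 in WT EtOH, 69.7, 76.7 and 86.4 in Ahr HKO con and 438, 139.6 and 153 in Ahr HKO EtOH. The first Ahr HKO EtOH liver exceeded all WT con livers while the others lay near WT EtOH, and the interaction was 2.92 (SE 0.56, adjusted P = 0.00487).

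WT con stood apart in fewer genes. Bmf, a BH3-only protein that promotes apoptosis, measured 28.2, 19.9 and 17.4 CPM in WT con, 1.61, 4.32 and 4.08 in WT EtOH, 2.55, 2.94 and 2.702 in Ahr HKO con and 3.98, 7.08 and 7.49 in Ahr HKO EtOH. The WT con livers were above 17 CPM and all others under 8. The interaction amounted to 3.88 (SE 0.49, adjusted P = 7.08e-04). Fzd8, a Wnt receptor, measured 22.6, 21.7 and 16.2 CPM in WT con, 9.99, 6.9 and 6.97 in WT EtOH, 6.09, 5.89 and 5.12 in Ahr HKO con and 8.603, 9.52 and 12.8 in Ahr HKO EtOH. It fell with ethanol in WT (log2 -1.34, adjusted P = 0.00235) and rose in Ahr HKO (log2 0.85, adjusted P = 0.00676), with an interaction of 2.19 (SE 0.28, adjusted P = 6.80e-04). Low in WT con was Ugdh, which makes the sugar acid for glucuronidation and measured 102, 85.01 and 86.1 CPM in WT con, 216, 205 and 222 in WT EtOH, 149, 174 and 202 in Ahr HKO con and 136, 150.3 and 145 in Ahr HKO EtOH. Its WT EtOH livers were the 3 highest, and the interaction was -1.52 (SE 0.17, adjusted P = 3.53e-04). Acnat2, which joins amino acids to fatty acids, measured 10.5, 17.96 and 18.01 CPM in WT con, 90.4, 60.02 and 56.1 in WT EtOH, 84.3, 148 and 144 in Ahr HKO con and 58.1, 34.4 and 56.3 in Ahr HKO EtOH. Expression rose with ethanol in WT and fell in Ahr HKO (log2 2.15 and -1.34, adjusted P = 0.00203 and 0.00545). Its interaction was -3.49 (SE 0.43, adjusted P = 5.68e-04).

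Ahr HKO EtOH stood apart mostly on the low side. Cyp2f2 (Entrez 13107, chr7:27119955-27133660), a periportal P450, was high and measured 1159, 1081 and 1058 CPM in WT con, 971, 1001 and 980.1 in WT EtOH, 627, 781 and 682 in Ahr HKO con and 1599, 1696 and 1973 in Ahr HKO EtOH. Its Ahr HKO EtOH livers were the highest 3 and its Ahr HKO con livers the lowest 3, with an interaction of 1.49 (SE 0.17, adjusted P = 3.98e-04). Gpat4, which starts glycerolipid synthesis, measured 155, 151 and 158 CPM in WT con, 136, 169.6 and 156 in WT EtOH, 144, 116 and 138 in Ahr HKO con and 232, 262 and 255 in Ahr HKO EtOH. The other 9 livers lay under 171 CPM. The interaction was 0.92 (SE 0.16, adjusted P = 0.00295). Among the low genes, Ccnd1, the cyclin of the G1 phase, measured 31, 41 and 54.4 CPM in WT con, 59.7, 64.3 and 60.8 in WT EtOH, 37.7, 87.4 and 117 in Ahr HKO con and 16.4, 21.8 and 14.4 in Ahr HKO EtOH. Its Ahr HKO con livers spread from 37.7 to 117 CPM. Its interaction came to -2.75 (SE 0.48, adjusted P = 0.00316). Apaf1, the core of the apoptosome, measured 3.01, 2.999 and 2.78 CPM in WT con, 2.93, 4.26 and 2.95 in WT EtOH, 5.095, 5.84 and 4.07 in Ahr HKO con and 1.63, 1.81 and 1.71 in Ahr HKO EtOH. The Ahr HKO EtOH livers were under 2 CPM and all others above 2.7, and the interaction was -1.75 (SE 0.27, adjusted P = 0.00177).

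Lists whose calls were mostly negative included those of stress responses. For these lists and those below, the shares among all tested genes were 11.2% positive and 11.1% negative. Of 24 tested NRF2 genes, the antioxidant program, 9 were negative and 0 positive with a median of -0.826. Their median level relative to the WT con mean on the log2 scale was 2.19, 1.91 and 1.83 in WT EtOH, 1.15, 1.29 and 0.873 in Ahr HKO EtOH and 0.0254, -0.00296 and 0.38 in Ahr HKO con, so the list lay above WT con with ethanol in both genotypes and higher in WT. Txnrd1, thioredoxin reductase, measured 97.96, 111 and 96.3 CPM in WT con, 168, 166 and 168 in WT EtOH, 189, 183 and 223 in Ahr HKO con and 143, 147 and 144 in Ahr HKO EtOH. This gave an interaction of -1.17 (SE 0.14, adjusted P = 4.72e-04). Hmox1, heme oxygenase, measured 20.2, 15.01 and 22.8 CPM in WT con, 83.4, 57.3 and 42.7 in WT EtOH, 37.7, 46.8 and 38.98 in Ahr HKO con and 37.4, 24.3 and 33.9 in Ahr HKO EtOH, and the interaction was -2.03 (SE 0.34, adjusted P = 0.00271). For both genes the WT con livers were lowest, Txnrd1 was highest in Ahr HKO con, and for Hmox1 the WT EtOH livers overlapped Ahr HKO con. Serine synthesis and ATF4 targets had 11 negative and 1 positive of 22 with a median of -1.25, and the negative count was 7 without WT con replicate 1 and 6 without Ahr HKO EtOH replicate 3, while 2 were positive without WT EtOH replicate 1 or Ahr HKO con replicate 3. Psat1, an enzyme of serine synthesis, measured 0.546, 0.536 and 0.756 CPM in WT con, 5.08, 2.24 and 4.65 in WT EtOH, 2.11, 1.01 and 1.795 in Ahr HKO con and 0.581, 0.309 and 0.248 in Ahr HKO EtOH. Levels rose with ethanol in WT (log2 2.70, adjusted P = 0.00338) and fell in Ahr HKO (log2 -2.08, adjusted P = 0.003599), with an interaction of -4.78 (SE 0.60, adjusted P = 6.44e-04). Shmt2, the mitochondrial serine hydroxymethyltransferase, was the positive member, at 1.14 (adjusted P = 0.00758).

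The unfolded protein response had 4 negative and 0 positive of 26 with a median of -0.922, a share near the 11.1% of all tested genes, and the count depended on single livers and on the tool. It was 9 with DESeq2, 2 with limma-voom and 8 on FPKM without quantile normalization. The count was 10 without WT EtOH replicate 1, 6 without Ahr HKO con replicate 2, and 2 without WT EtOH replicate 3, Ahr HKO con replicate 1 or 3, Ahr HKO EtOH replicate 1 or 3 or any WT con replicate. Glucocorticoid response genes had 5 negative of 20 and a median of -0.896, with 2 called without WT con replicate 2, 3 without WT EtOH replicate 1 or Ahr HKO con replicate 1 and 8 without WT con replicate 3. Zbtb16, a zinc finger protein that glucocorticoids induce, measured 15.3, 10.1 and 9.14 CPM in WT con, 27.6, 35.6 and 41.6 in WT EtOH, 77.6, 74.1 and 84.4 in Ahr HKO con and 106, 98.8 and 95.9 in Ahr HKO EtOH. It was higher in Ahr HKO than in WT on both diets, and it rose with ethanol in WT (log2 1.60, adjusted P = 8.63e-04), with an interaction of -1.26 (SE 0.26, adjusted P = 0.00753). CAR and PXR genes, the other xenobiotic program, had 6 negative of 27 and a median of -0.334, with a median diet effect of 1.53 in WT and 1.41 in Ahr HKO. Their count was 1 without Ahr HKO con replicate 3, 2 without WT con replicate 2 or 3, WT EtOH replicate 1 or Ahr HKO EtOH replicate 2 or 3, and 3 without WT EtOH replicate 2 or Ahr HKO EtOH replicate 1. Abcc4, an exporter of bile acids and conjugates, measured 2.03, 1.64 and 2.29 CPM in WT con, 105, 90.5 and 49.6 in WT EtOH, 3.59, 2.97 and 2.52 in Ahr HKO con and 11.3, 29.4 and 6.18 in Ahr HKO EtOH. Expression rose with ethanol in both genotypes (log2 5.36 and 2.37, adjusted P = 3.59e-04 and 0.00357), more so in WT, with an interaction of -2.99 (SE 0.68, adjusted P = 0.0108).

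**Figure D4:**
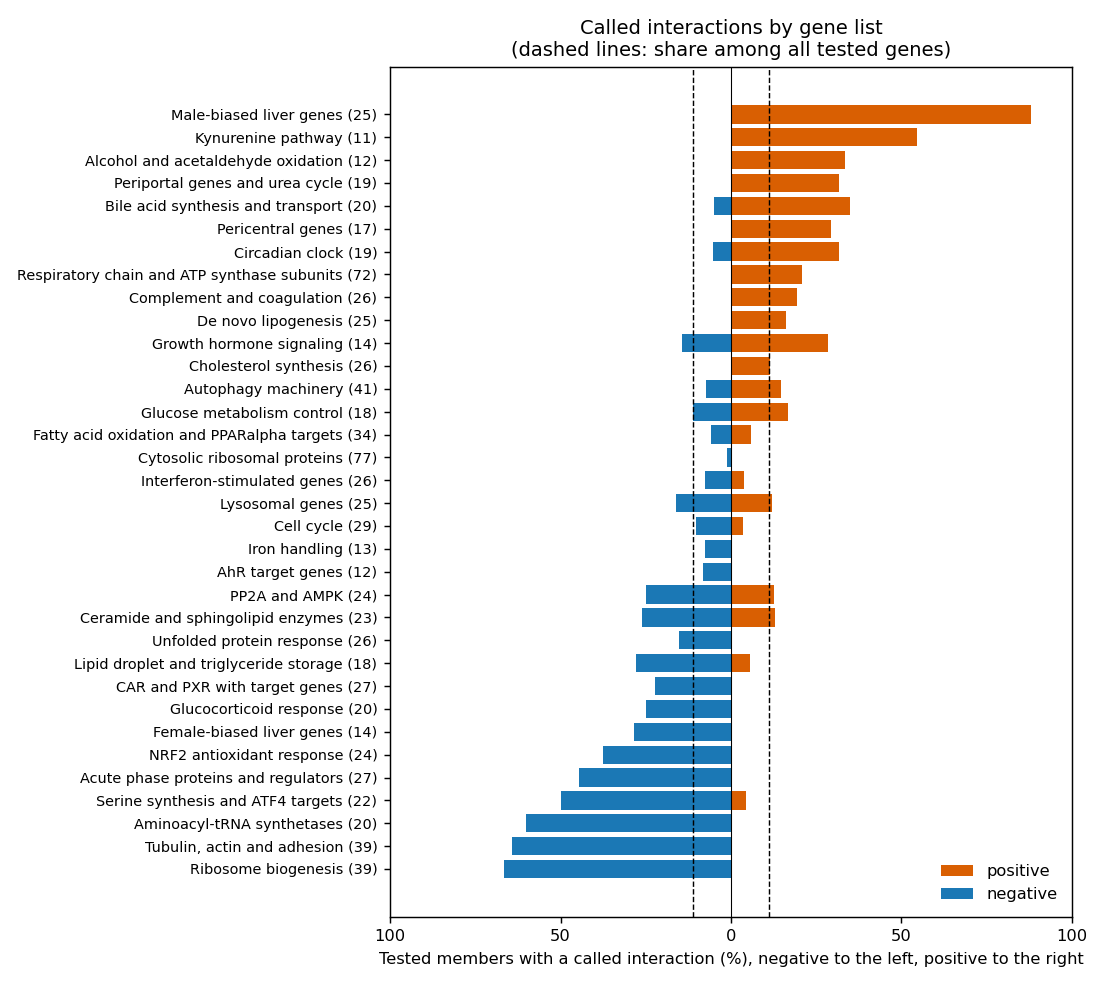
Bars give the share of the tested members of each gene list with a called interaction, in percent, positive to the right and negative to the left, with the number of tested members in parentheses and the shares among all tested genes (11.2% and 11.1%) as dashed lines. Male-biased genes lie farthest to the right, with 22 of 25 positive, and ribosome biogenesis, cytoskeletal and tRNA synthetase genes, whose lists were written after values were seen, farthest to the left.

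Calls among lipid genes lay in both directions. Of 18 lipid droplet and triglyceride storage genes 5 were negative and 1 positive. Fabp4, a fatty acid carrier typical of fat cells and macrophages, measured 6.85, 7.43 and 11.6 CPM in WT con, 9.04, 11.3 and 7.78 in WT EtOH, 48.6, 50.4 and 35.5 in Ahr HKO con and 7.04, 10.1 and 9.74 in Ahr HKO EtOH. Cidec, which fuses lipid droplets, measured 1.397, 2.23 and 1.29 CPM in WT con, 4.29, 3.1 and 2.12 in WT EtOH, 11.9, 30.2 and 32.95 in Ahr HKO con and 2.296, 7.93 and 2.57 in Ahr HKO EtOH. Plin2, the main coat protein of droplets in hepatocytes, measured 338, 501 and 325 CPM in WT con, 544, 605 and 332 in WT EtOH, 709, 757 and 965 in Ahr HKO con and 338, 337 and 378 in Ahr HKO EtOH. All 3 genes were highest in the 3 Ahr HKO con livers, with interactions of -2.45, -3.48 and -1.56 and adjusted P values of 8.67e-04, 0.00775 and 0.00736. The positive member was Lipe, hormone-sensitive lipase, at 1.14 (adjusted P = 0.0106), and 2 were positive without WT EtOH replicate 1 or 3 or Ahr HKO con replicate 3. De novo lipogenesis had 4 positive and 0 negative of 25 with a median of 0.223, or 2 positive without Ahr HKO EtOH replicate 3. Cholesterol synthesis had 3 positive of 26 with a median of 0.742, or 5 without Ahr HKO EtOH replicate 2, a share near that of all tested genes. Fatty acid oxidation and PPARalpha targets had 2 positive and 2 negative of 34, shares below those of all tested genes. The positive count was 5 without Ahr HKO con replicate 3, and the negative count was 3 without Ahr HKO con replicate 2 and 1 without WT con replicate 2, WT EtOH replicate 2, Ahr HKO con replicate 1 or Ahr HKO EtOH replicate 3.

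Enzymes of ceramide and other sphingolipids had 6 negative and 3 positive of 23 with a median of -0.377, while the negative count was 3 without WT con replicate 2 or 3 or Ahr HKO EtOH replicate 3. Sptlc2, a subunit of the enzyme that commits serine and palmitoyl-CoA to sphingolipids, measured 18.2, 18.8 and 17.5 CPM in WT con, 25.1, 23.6 and 20.5 in WT EtOH, 61.99, 45.4 and 53.4 in Ahr HKO con and 19.3, 16.9 and 17.7 in Ahr HKO EtOH. The Ahr HKO con livers lay above 45 CPM and all others under 26. The interaction amounted to -1.92 (SE 0.17, adjusted P = 1.58e-04). Cers6, a ceramide synthase for C16 chains, measured 15.6, 12.9 and 9.57 CPM in WT con, 30.7, 36.04 and 28.1 in WT EtOH, 66.8, 42.2 and 115 in Ahr HKO con and 31.3, 21.5 and 22.6 in Ahr HKO EtOH. Expression rose with ethanol in WT (log2 1.32, adjusted P = 0.0228) and fell in Ahr HKO (log2 -1.57, adjusted P = 0.00314), and the interaction was -2.88 (SE 0.44, adjusted P = 0.00175). Degs1, the desaturase that finishes ceramide, measured 64.8, 60.01 and 58.3 CPM in WT con, 64.5, 63.9 and 59.5 in WT EtOH, 45.9, 42.5 and 39.5 in Ahr HKO con and 74.4, 60.7 and 59.5 in Ahr HKO EtOH. It was lowest in Ahr HKO con, its interaction of 0.57 (SE 0.14) was positive with an adjusted P of 0.0173, and the call was not made on FPKM without quantile normalization.

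Lists of several functions of mature hepatocytes had calls that were mostly positive. Of 11 kynurenine pathway genes tested, out of 14 listed, 6 were positive and 0 negative with a median of 0.916. Aadat, an aminotransferase that turns kynurenine into kynurenic acid, measured 139, 129 and 109 CPM in WT con, 43.1, 44.2 and 33.6 in WT EtOH, 55.6, 64.7 and 53.3 in Ahr HKO con and 65.7, 71.2 and 92.4 in Ahr HKO EtOH. WT con lay above all others and WT EtOH below them. Its interaction was 2.04 (SE 0.22, adjusted P = 3.22e-04). Ido2, which opens the tryptophan ring, measured 93.8, 94.8 and 91.8 CPM in WT con, 77.5, 56.5 and 49.4 in WT EtOH, 45.1, 53.2 and 57.8 in Ahr HKO con and 99.9, 68.2 and 94.5 in Ahr HKO EtOH. It fell with ethanol in WT (log2 -0.61, adjusted P = 0.0492) and rose in Ahr HKO (log2 0.75, adjusted P = 0.00785), with an interaction of 1.36 (SE 0.25, adjusted P = 0.004202). Kynu, kynureninase, measured 152, 161 and 175 CPM in WT con, 127, 127 and 158 in WT EtOH, 86.4, 89.8 and 83.7 in Ahr HKO con and 169.6, 124 and 143 in Ahr HKO EtOH. Ahr HKO con held the lowest 3 values. The interaction was 0.99 (SE 0.18, adjusted P = 0.00404). Tdo2, the main tryptophan-cleaving enzyme of liver, measured 1142, 780 and 991 CPM in WT con, 782, 818 and 747 in WT EtOH, 726, 401 and 1361 in Ahr HKO con and 1047, 1491 and 1245 in Ahr HKO EtOH. The Ahr HKO EtOH livers lay above the WT EtOH livers, both overlapped the control livers of their genotype, and the interaction of 0.92 had an adjusted P of 0.1899. Ido1 had no read in any library.

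Alcohol and acetaldehyde oxidation had 4 positive and 0 negative of 12 with a median of 0.39. Cyp2e1, the ethanol-oxidizing P450, measured 7746, 7607 and 6682 CPM in WT con, 4126, 4292 and 4177 in WT EtOH, 4926, 3607 and 6288 in Ahr HKO con and 7014, 6252 and 6178 in Ahr HKO EtOH. It fell with ethanol in WT (log2 -0.81, adjusted P = 0.0192) and had a log2 of 0.39 in Ahr HKO (adjusted P = 0.117). The value of the interaction was 1.20 (SE 0.26, adjusted P = 0.00881). Cat, catalase, measured 3022, 2316 and 2288 CPM in WT con, 2502, 2528 and 2635 in WT EtOH, 1467, 1680 and 1886 in Ahr HKO con and 3226, 3098 and 2809 in Ahr HKO EtOH. Ahr HKO con was lowest, and the interaction was 0.85 (SE 0.21, adjusted P = 0.0144). On quantile-normalized FPKM neither of these calls was made. Acss2, which activates acetate, measured 246, 161 and 191 CPM in WT con, 98.8, 60 and 74.96 in WT EtOH, 66.1, 52.9 and 73.8 in Ahr HKO con and 241, 59.7 and 89.1 in Ahr HKO EtOH. This gave an interaction of 2.37 (SE 0.59, adjusted P = 0.0164). The WT con livers were high and 1 Ahr HKO EtOH liver reached their level.

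The 2 zonation lists held positive calls only in the reported fit. On FPKM without quantile normalization the periportal list had 2 positive and 2 negative, and the pericentral list 3 positive and 2 negative. On quantile-normalized log2(FPKM + 1) each list held 1 negative call, and with DESeq2 the pericentral list held 1. Periportal and urea cycle genes had 6 positive and 0 negative of 19 with a median of 0.685, and 10 positive without WT EtOH replicate 1 or Ahr HKO con replicate 3. The count was 2 without WT con replicate 1, WT EtOH replicate 3, Ahr HKO con replicate 1 or Ahr HKO EtOH replicate 3, and 3 without WT con replicate 3, WT EtOH replicate 2, Ahr HKO con replicate 2 or Ahr HKO EtOH replicate 1 or 2. Pericentral genes had 5 positive and 0 negative of 17 with a median of 0.543, or 3 without WT con replicate 1, WT EtOH replicate 2 or 3, Ahr HKO con replicate 1 or Ahr HKO EtOH replicate 1. Bile acid synthesis and transport had 7 positive and 1 negative of 20, with 4 positive without WT EtOH replicate 2, Ahr HKO con replicate 1 or Ahr HKO EtOH replicate 1. Cyp8b1, which sets the share of cholic acid, measured 646, 576 and 491 CPM in WT con, 542, 144 and 206 in WT EtOH, 79.8, 147 and 68.6 in Ahr HKO con and 450.1, 304 and 252 in Ahr HKO EtOH. It was low in Ahr HKO con with a WT EtOH liver at a similar level, and the interaction was 2.71 (SE 0.63, adjusted P = 0.0123). The circadian clock had 6 positive and 1 negative of 19 with a median of 0.688, and 0 negative without WT con replicate 3 or Ahr HKO EtOH replicate 3. Nr1d1, the repressor REV-ERBalpha, measured 178, 148 and 153 CPM in WT con, 75.7, 127 and 154 in WT EtOH, 107, 94.95 and 98.8 in Ahr HKO con and 175, 248 and 232 in Ahr HKO EtOH. Its Ahr HKO con livers lay below all WT con and Ahr HKO EtOH livers, and WT EtOH spread across both ranges, with an interaction of 1.55 (SE 0.31, adjusted P = 0.00587). Bhlhe41, a clock repressor, measured 6.898, 7.21 and 6.99 CPM in WT con, 1.66, 1.96 and 3.38 in WT EtOH, 3.99, 3.87 and 4.94 in Ahr HKO con and 3.81, 11.4 and 7.44 in Ahr HKO EtOH. The interaction amounted to 2.41 (SE 0.49, adjusted P = 0.00676). Its WT EtOH livers held the 3 lowest values.

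Respiratory chain and ATP synthase subunits had 15 positive and 0 negative of 72 with a median of 0.358. Ndufv3, a subunit of complex I, measured 60.6, 58.1 and 59.2 CPM in WT con, 60.7, 46.6 and 55.7 in WT EtOH, 42.3, 40.6 and 42.3 in Ahr HKO con and 72.9, 68.1 and 70.7 in Ahr HKO EtOH. The Ahr HKO EtOH livers were highest and the Ahr HKO con livers lowest, and the interaction was 0.89 (SE 0.13, adjusted P = 0.00154). This count depended on scaling and on single livers. It was 27 with upper-quartile scaling, 10 with RLE scaling and 3 on FPKM without quantile normalization. It was 31 without Ahr HKO con replicate 3, 13 without WT EtOH replicate 1 and 4 to 8 without any of the other 10 livers. Complement and coagulation had 5 positive and 0 negative of 26, with 3 called without WT con replicate 3, WT EtOH replicate 2 or Ahr HKO EtOH replicate 3. Of the called members, C6 and C8b are also in the male-biased list, so the 2 lists are not separate results. F11, coagulation factor XI, measured 139, 121 and 109 CPM in WT con, 25.4, 15.6 and 31.9 in WT EtOH, 55.7, 67.7 and 51.04 in Ahr HKO con and 51.03, 44.4 and 54.2 in Ahr HKO EtOH. WT con lay above all others and WT EtOH below them. Its interaction was 2.12 (SE 0.31, adjusted P = 0.00128). Growth hormone signaling had 4 positive and 2 negative of 14. The positive count was 2 without WT con replicate 1 or 2, Ahr HKO con replicate 2 or Ahr HKO EtOH replicate 1 or 3. The negative count was 0 without Ahr HKO EtOH replicate 3 and 1 without any WT con replicate, WT EtOH replicate 2, Ahr HKO con replicate 3 or Ahr HKO EtOH replicate 1 or 2. Glucose metabolism control had 3 positive and 2 negative of 18, with 0 negative without WT con replicate 2 and 1 without WT EtOH replicate 2 or Ahr HKO EtOH replicate 3. Cell cycle genes had 1 positive and 3 negative of 29, shares below and near those of all tested genes. There were 5 and 6 negative without WT EtOH replicate 1 and 3. There were 2 positive without WT EtOH replicate 2 or 3 and 3 positive without Ahr HKO con replicate 1 or Ahr HKO EtOH replicate 1. Iron handling had 0 positive and 1 negative of 13, shares below those of all tested genes. The negative count was 0 without WT con replicate 1 or 3, WT EtOH replicate 1, Ahr HKO con replicate 1 or Ahr HKO EtOH replicate 3, and 2 without Ahr HKO con replicate 2. Interferon-stimulated genes had 1 positive and 2 negative of 26, shares below those of all tested genes. The negative count was 4 without WT EtOH replicate 3, 2 without Ahr HKO con replicate 3, 1 without WT con replicate 3 or Ahr HKO con replicate 2 and 0 without any of the others. The positive count was 0 without WT con replicate 1 or 2, WT EtOH replicate 1 or 3, Ahr HKO con replicate 3 or Ahr HKO EtOH replicate 2 or 3.

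**Figure D5:**
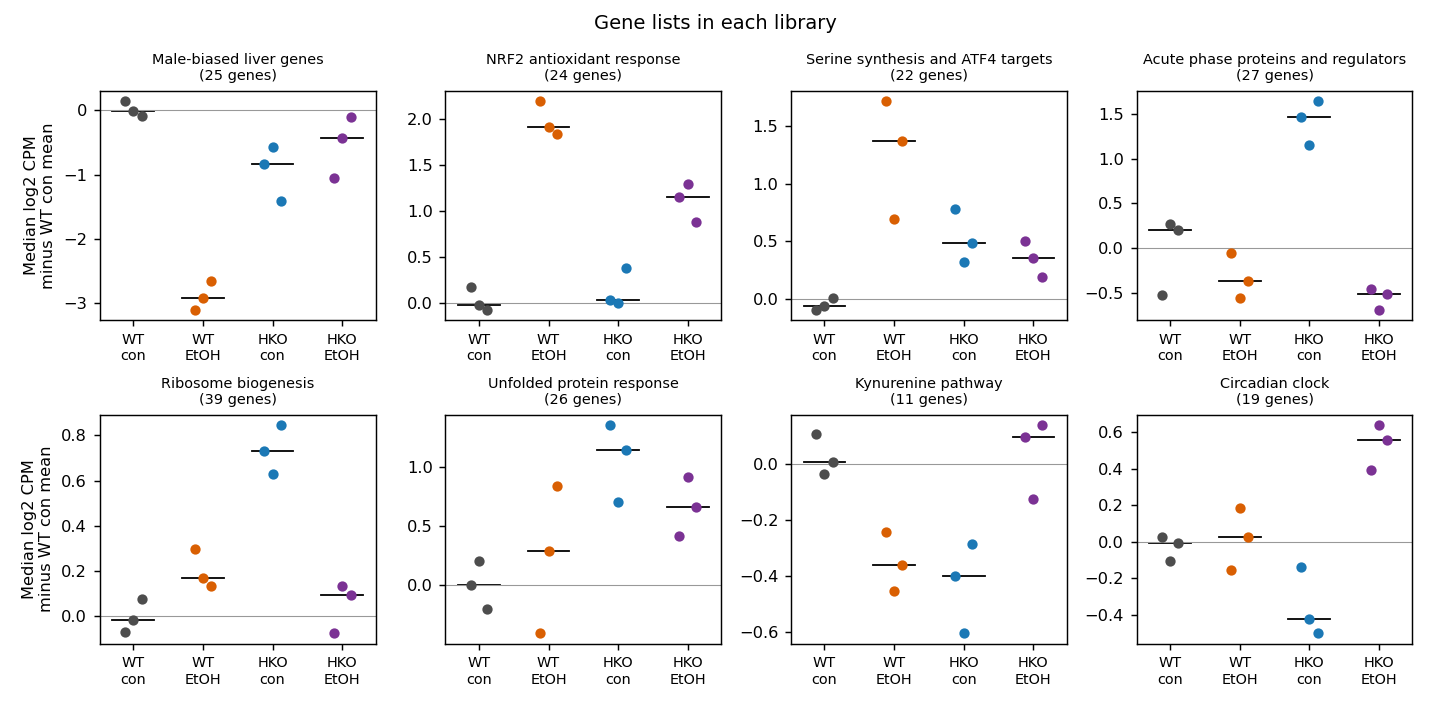
Points give, for each of the 12 libraries by group, the median over a gene list of log2 CPM minus the mean of WT con for the same gene, with the group median as a line. Male-biased genes lie near -3 in WT EtOH, NRF2 genes near 2 in WT EtOH and near 1 in Ahr HKO EtOH, and acute phase and ribosome biogenesis genes are high in the 3 Ahr HKO con livers.

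The question behind the comparison was a chain in which AhR raises Ppp2r2d, a regulatory subunit of the phosphatase PP2A that removes phosphate from AMPK and thereby slows autophagy. The genes of that chain were read whatever their values. Ppp2r2d (Entrez 52432, chr7:138846350-138883057) measured 20.8, 20.4 and 18.9 CPM in WT con, 29.7, 28.5 and 26.5 in WT EtOH, 24.2, 25.8 and 31.7 in Ahr HKO con and 21.1, 23.4 and 22.7 in Ahr HKO EtOH. In WT it rose with ethanol (log2 0.49, adjusted P = 0.0145) and its diet effect in Ahr HKO was -0.28 (adjusted P = 0.0551). The interaction was -0.78 (SE 0.15, adjusted P = 0.00499). The WT EtOH livers lay above all WT con and all Ahr HKO EtOH livers and overlapped the Ahr HKO con livers, which were themselves higher than WT con (log2 0.44, adjusted P = 0.00852). Arnt, the partner of AhR, measured 31.3, 32.3 and 28.3 CPM in WT con, 32.2, 32.1 and 31.3 in WT EtOH, 36.96, 45.2 and 53.2 in Ahr HKO con and 30.6, 29.1 and 28.8 in Ahr HKO EtOH. It was highest in the 3 Ahr HKO con livers, with an interaction of -0.67 (SE 0.16, adjusted P = 0.0153). Of 24 PP2A and AMPK genes 6 were negative and 3 positive, and the positive share was near that of all tested genes. The positive calls were fewer in most fits with a library left out, at 0 without WT con replicate 1 or 2, WT EtOH replicate 2 or Ahr HKO con replicate 1, and 1 without WT EtOH replicate 1, Ahr HKO con replicate 3 or Ahr HKO EtOH replicate 1 or 2. Ppp2r5c, a regulatory subunit of another family, measured 32.1, 33.8 and 32.2 CPM in WT con, 41.6, 43.6 and 46.9 in WT EtOH, 36.1, 39.3 and 40.3 in Ahr HKO con and 42.2, 39.6 and 38.5 in Ahr HKO EtOH. It was higher in every WT EtOH liver than in WT con, and its interaction was -0.37 (SE 0.11) with an adjusted P of 0.0357, a call kept in 3 of the 12 fits with a library left out. Ppp2r5d, of the same family, measured 28.6, 29.9 and 29.5 CPM in WT con, 26.96, 27.03 and 35.3 in WT EtOH, 24.7, 23.2 and 23.3 in Ahr HKO con and 33.2, 36.2 and 32.1 in Ahr HKO EtOH. It was lowest in the 3 Ahr HKO con livers, with an interaction of 0.49 (SE 0.15, adjusted P = 0.0375), and this call was kept in 1 of the 12 fits, the one without WT EtOH replicate 3. Ppp2ca and Ppp2cb, the catalytic subunits, were negative at -0.43 and -0.69 (adjusted P = 0.0183 and 0.00437). Prkaa1, the AMPK alpha1 subunit, measured 10.4, 8.44 and 8.83 CPM in WT con, 9.74, 10.6 and 10.4 in WT EtOH, 10.6, 11.5 and 9.18 in Ahr HKO con and 9.71, 9.57 and 10.7 in Ahr HKO EtOH, and its interaction of -0.22 had an adjusted P of 0.375. Prkaa2, the alpha2 subunit, measured 48.6, 45.3 and 41.1 CPM in WT con, 59.1, 64.3 and 81.95 in WT EtOH, 24.04, 30.8 and 21.9 in Ahr HKO con and 51.2, 53.9 and 55.2 in Ahr HKO EtOH. It was lowest in the 3 Ahr HKO con livers, rose with ethanol in WT and Ahr HKO (log2 0.60 and 1.06, adjusted P = 0.0229 and 3.98e-04), and had an interaction of 0.46 with an adjusted P of 0.129.

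Autophagy machinery had 6 positive and 3 negative of 41 with a median of 0.129, shares near the 11.2% and below the 11.1% of all tested genes, and on FPKM without quantile normalization 2 positive and 7 negative. Wipi1, which binds the lipid that marks the forming autophagosome, measured 19.6, 18.4 and 24.9 CPM in WT con, 6.99, 5.99 and 8.72 in WT EtOH, 10.97, 13.1 and 8.63 in Ahr HKO con and 10.8, 11.3 and 14.2 in Ahr HKO EtOH. WT con was highest and WT EtOH lowest apart from the nearest Ahr HKO con values. The value of the interaction was 1.68 (SE 0.27, adjusted P = 0.00226). Sqstm1, the cargo receptor p62, measured 403, 387 and 365 CPM in WT con, 885, 559 and 532 in WT EtOH, 522, 531 and 549 in Ahr HKO con and 495, 465 and 479.5 in Ahr HKO EtOH. Levels rose with ethanol in WT (log2 0.77, adjusted P = 0.0152), with 1 liver well above the other two, and the interaction was -0.93 (SE 0.24, adjusted P = 0.0177). Map1lc3b, which encodes LC3B, measured 162, 167 and 162 CPM in WT con, 143, 133 and 126 in WT EtOH, 198, 157 and 238 in Ahr HKO con and 136, 156 and 162 in Ahr HKO EtOH, and its interaction of -0.10 had an adjusted P of 0.757. Lysosomal genes had 3 positive and 4 negative of 25, beside 11.2% and 11.1% of all tested genes. The positive count was 1 without WT EtOH replicate 2 or 3 or Ahr HKO EtOH replicate 3. The negative count was 1 without WT con replicate 1 or Ahr HKO EtOH replicate 2 or 3, 2 without WT con replicate 2, WT EtOH replicate 1 or 2 or Ahr HKO con replicate 1, and 6 without WT EtOH replicate 3. Ppargc1a, the coactivator that drives mitochondrial genes, measured 6.31, 7.801 and 6.07 CPM in WT con, 11.01, 9.396 and 9.92 in WT EtOH, 4.87, 3.67 and 4.68 in Ahr HKO con and 13.5, 12.5 and 11.6 in Ahr HKO EtOH. Expression rose with ethanol in both genotypes (log2 0.59 and 1.51, adjusted P = 0.0236 and 5.94e-05), more so in Ahr HKO, with an interaction of 0.93 (SE 0.20, adjusted P = 0.00852). Cyp1a1, the enzyme by which AhR activity is usually read, stayed under 2 CPM in every liver at 0.349, 0.214 and 0.204 CPM in WT con, 1.36, 1.02 and 1.66 in WT EtOH, 0.898, 0.444 and 0.827 in Ahr HKO con and 1.04, 1.24 and 1.67 in Ahr HKO EtOH. Expression rose with ethanol in WT (log2 2.39, adjusted P = 0.00379), beside a log2 of 0.85 in Ahr HKO (adjusted P = 0.0793), and its interaction of -1.54 had an adjusted P of 0.0531.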

How the data were processed

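RNA was taken from 12 livers, 3 per group, and sequenced from TruSeq stranded mRNA libraries. The authors deposited 1 table of genes with read counts, FPKM and TPM for each library. The submitters' processing notes name Trimmomatic 0.38, HISAT2 2.1.0, Bowtie2 2.3.4.1, StringTie 1.3.4d and FastQC 0.11.7 and the build mm10, without the role of each, so whether the deposited read counts used strand is not given in the sources used here. FPKM, which the authors computed per gene length and library size, served for alternatives only, because the study's methods tested log-transformed, quantile-normalized FPKM, and the deposited TPM values were not tested.

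Read counts of all 12 libraries were fitted in edgeR 4.0.16 (R 4.3.3) with 1 mean per group, TMM factors and the filter of filterByExpr, which kept 14038 of the 17220 genes with a read. The quasi-likelihood test was applied to the interaction and to the 4 effects within it, each with Benjamini-Hochberg adjustment, and the standard error is the log2 value over the square root of F. CPM were computed from TMM-scaled totals, and patterns from log2 CPM with a prior count of 2. The code was tested on simulated counts. Depth was 46306518 to 74336255 reads, with less precision for genes of few reads.

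Genes were named by these rules: the 12 largest interactions in each direction with a mean count of at least 50, the 4 smallest P values per pattern and direction, up to 5 called members per list, and 16 genes of the study's question. The rules and lists were chosen with earlier results of these data known, and the 3 lists so marked after values were seen. Alternatives were other scalings, DESeq2 1.42.0, limma 3.58.1, FPKM, filters, a fold minimum, a wider pattern gap, a replicate block and each library left out. Promoter sequences came from the RefSeq table on GRCm38.p6, and figures were drawn with matplotlib 3.10.9.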

Additional observations from a re-analysis of the deposited data

Results flagged for a closer look

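Every result here was marked because the effect of ethanol differed between the genotypes by the interaction test itself. That held for 3137 genes, of which 1576 were positive and 1561 negative.

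Among the largest positive interactions on the log2 scale, Hsd3b5 stood at 11.72, Clec2h at 7.88, Slc13a2 at 6.86, Gm4956 at 6.56, Mup7 at 6.47, Cyp4a12b at 6.45, Adgrf1 at 5.68, Slco1a1 at 5.58, Selenbp2 at 5.55 and Chrna4 at 5.32. Obp2a at 9.43 and Fmn2 at 6.26 had all 3 WT EtOH libraries at or under the floor of 3 reads, so that these fitted values depend on the prior count. Chrna4 measured 21.4, 0.941 and 4.53 CPM in Ahr HKO EtOH. Its call was lost with limma-voom and on log2(FPKM + 1) with or without quantile normalization. Adgrf1 measured 0, 0.159 and 0 CPM in WT EtOH, and its value ran from 5.09 to 10.37 with a library left out. Slc13a2 measured 0.0817, 0 and 0.121 CPM in Ahr HKO con.

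Among the largest negative ones, Ly6d stood at -9.08, Akr1b7 at -8.23, Cyp2a22 at -7.12, Syt12 at -5.95, Adcy1 at -5.83, Lepr at -5.28, Cd14 at -5.26 and 9530077C05Rik at -5.10. Gm12070 at -15.28, Cyp2b9 at -14.48 and Cyp2a4 at -13.58 had all 3 WT con libraries at or under that floor, and Timp1 at -10.37 all 3 Ahr HKO EtOH libraries. Their fitted values depend on the prior count too. Gm12070 also had no read in WT EtOH replicate 3. The call of 9530077C05Rik was kept in 6 of the 12 fits with a library left out.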

How the results depend on the processing

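The number of interaction genes was 3163 with upper-quartile scaling, 3122 with RLE scaling, 3977 with DESeq2, 2993 with limma-voom, 3219 on quantile-normalized log2(FPKM + 1), 3234 with 0.1 in place of 1, 2880 without the filter and 3230 with at least 10 counts in every library. On log2(FPKM + 1) without quantile normalization it was 3446, with 806 positive and 2640 negative, of which 2279 were shared with the reported genes, all in the same direction. A minimum of 2-fold left 1498, 734 positive and 764 negative. Of the 191 called genes named in the text or by rule, 190 kept their direction under every alternative, 155 stayed past the threshold with every library left out in turn and 136 under every alternative and left-out library. The exception was Fmn2, whose value turned to -0.06004 on quantile-normalized log2(FPKM + 1) and -0.0673 without quantile normalization. The cause was not tested.

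The counts of genes with WT con apart, Ahr HKO con apart, Ahr HKO EtOH apart and crossing were 66, 605, 18 and 53 on quantile-normalized log2(FPKM + 1), 58, 533, 32 and 55 without quantile normalization and 38, 376, 42 and 61 with a pattern gap of 2-fold. With a minimum interaction of 2-fold Ahr HKO con was apart in 594. Ahr HKO EtOH was apart in 209 with DESeq2, 80 with limma-voom and 61 with FPKM + 0.1. With each library left out in turn the interaction genes numbered 2231 to 3072, 1166 to 1584 positive and 1059 to 1488 negative, with WT con apart in 74 to 107, WT EtOH in 69 to 151, Ahr HKO con in 701 to 946 and Ahr HKO EtOH in 53 to 159, and crossing in 137 to 244.

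Deviations of same-numbered livers correlated at -0.0884 to 0.178 and over 0.1 in 2 of 18 pairs. These 2 were livers 1 and 2 of WT EtOH and Ahr HKO EtOH (0.178 and 0.133), above their best pairing with another number (-0.00177 and 0.0132). The reported fit did not pair the livers by number, and low correlations cannot show that livers were handled apart. With the replicate block 2745 genes were called, of which 2642 were shared, and 2 female-biased genes in place of 4, without Cyp2a4. Depth limited genes of few reads, where the standard error was the greatest.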
